A study of Rattus norvegicus with 6 samples.

Results

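Rats with a fracture and no alcohol were set against rats with alcohol and no fracture. The comparison is group A (pair-fed, fracture) minus group D (alcohol-fed, no fracture), so diet and injury differ together and their shares cannot be told apart. It was measured in 3 ways: on the direct pairing A vs. D, on the path through group B (pair-fed, no fracture) as A vs. B plus B vs. D, and on the path through group C (alcohol-fed, fracture) as A vs. C plus C vs. D. These use 5 of the 6 pairings of the series, and each covers all 23549 rows that remained after control spots were left out and probes of one gene were averaged, 12589 of them named genes.

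All animals were Sprague-Dawley rats, 4 weeks old when they were placed for 4 weeks on a Lieber and DeCarli liquid diet that contained ethanol (groups C and D) or was pair-fed (groups A and B). Groups A and C then received a closed mid-shaft fracture over a steel pin placed through the knee, and groups B and D had no surgical fracture. The labels do not say whether groups B and D were pinned, nor what tissue stands in for a callus in them. Samples were collected 3 days later from the right hind-limb. Each group had 3 numbered samples and each number was hybridised on 1 pairing only, so the direct pairing and the paths share no numbered sample of A or D. Whether the numbers are separate animals is not stated, and a p-value here reflects only how far these samples spread, which may be technical.

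At this stage a fracture is in its inflammatory phase, when blood clot, neutrophils and macrophages fill the gap and secrete cytokines, and periosteal cells begin to divide and lay down a provisional matrix of fibronectin and collagens. Bone formation by osteoblasts follows, and bone marrow and torn muscle border the site. Chronic alcohol is known to delay fracture repair and to act on bone formation, marrow and oxidative stress.

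The deposited values are log ratios, 1 for each probe and pairing, and since the labels do not state the log base, they are not turned into folds. Each ratio was taken as the group named first over the group named second, which the labels do not settle. Values above 0 then lie towards pair-fed fracture and values below 0 towards alcohol-fed no fracture. The A vs. D and A vs. C columns had a correlation of -0.616 over all probes although both share group A. With A vs. B, which also shares group A, A vs. D was at 0.258 and A vs. C at -0.216. With the pairings that share group D, A vs. D was at 0.234 for C vs. D and -0.273 for B vs. D. The direction of neither column is thus settled. Results are also given with A vs. D turned, and some with A vs. C turned. A ratio does not give the level of a marker, so the labelled tissue could not be checked against its defining genes. In such bulk tissue, fewer cells of a type and less RNA per cell cannot be told apart. Standard deviations over probes ran from 0.252 for A vs. B to 0.572 for C vs. D, and with so few arrays every value has limited precision.

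The 3 measurements of the same difference had little in common. The direct pairing had a standard deviation over rows of 0.42, the path through B of 0.35 and the path through C of 0.59. Across the 23549 rows, which share arrays and labelling within each column, the Pearson correlation was -0.083 between the direct pairing and the path through B and -0.318 between the direct pairing and the path through C. Between the 2 paths, which do not use the A vs. D column, it was -0.0037. The Spearman values were -0.093, -0.223 and -0.043. With the A vs. D column turned, the first 2 of each kind are positive at the same size and the value between the paths stays as it is.

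**Figure D1:**
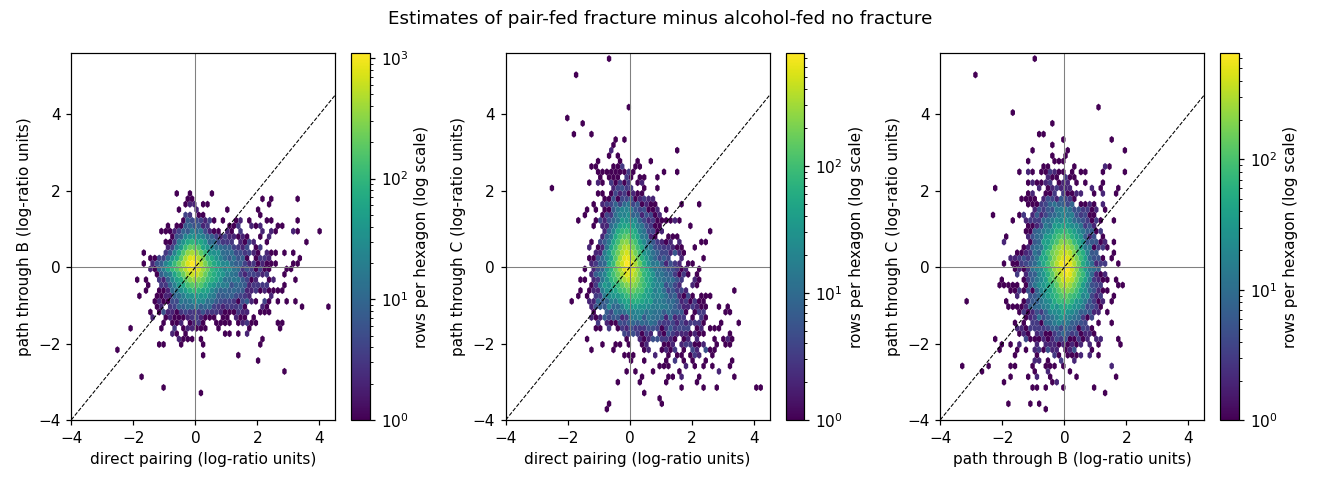
Each panel plots a pair of the 3 estimates of pair-fed fracture minus alcohol-fed no fracture, in log-ratio units, with the number of rows per hexagon on a log colour scale and the line of equality dashed. The direct pairing and the path through C slope downwards (Pearson -0.318), and the 2 paths form a round cloud (Pearson -0.0037).

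The columns can also be asked whether they close, that is whether 2 steps add up to the third pairing of the same 3 groups. A closure ratio of 0 means that they add up exactly, and unrelated columns would give 1. Related columns can also give a ratio near 1 where their correlations cancel. A ratio near 1 therefore does not show that the columns are unrelated. The ratio was 0.928 for the loop of A, B and D and 0.901 for the loop of A, C and D. The loops without the A vs. D column had lower ratios, at 0.778 for A, B and C and 0.621 for B, C and D. With the A vs. D column turned, the ratios of its loops were 0.788 through B and 0.484 through C, so the loop through C then closed better than any other.

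Agreement in sign was the exception. The direct pairing and both paths had one sign in 4011 of 23549 rows, which is 17%, with 1809 rows (7.68%) above 0 on all 3 and 2202 (9.35%) below 0 on all 3. In 7233 rows (30.7%) the direct pairing opposed both paths, which would be the count of agreement with the A vs. D column turned. The direct pairing lay below 0 and both paths above it in 4253 of these rows (18.1%), and the reverse held in 2980 (12.7%). The path through B stood alone in 5633 rows and the path through C in 6659. Both paths had one sign in 11249 rows, or 47.8%. If the A vs. C column were turned in place of A vs. D, 6346 rows (26.9%) would have one sign on all 3.

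Among rows where all 3 values were beyond 0.5 in size, agreement was rarer still. There were 454 such rows, of which 35 (7.71%) had one sign, 5 of them above 0 and 30 below. In 223 (49.1%) the direct pairing opposed both paths, nearly always with the direct value above 0 and the paths below it (208 rows, against 15 the other way). In 160 rows the path through C stood alone. In the 208 rows the medians of the columns were 1.26 for A vs. D, -1.30 for A vs. C and -0.94 for B vs. D, while A vs. B, B vs. C and C vs. D had medians of 0.10, 0.09 and 0.06. By median, the steps well below 0 were thus A vs. C and B vs. D. The signs of A vs. D and of both path sums were fixed by the choice of rows. Single rows can differ from these medians, as Rhag below does. Where both paths were beyond 0.5, they had one sign in 679 of 1350 rows (50.3%).

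**Figure D2:**
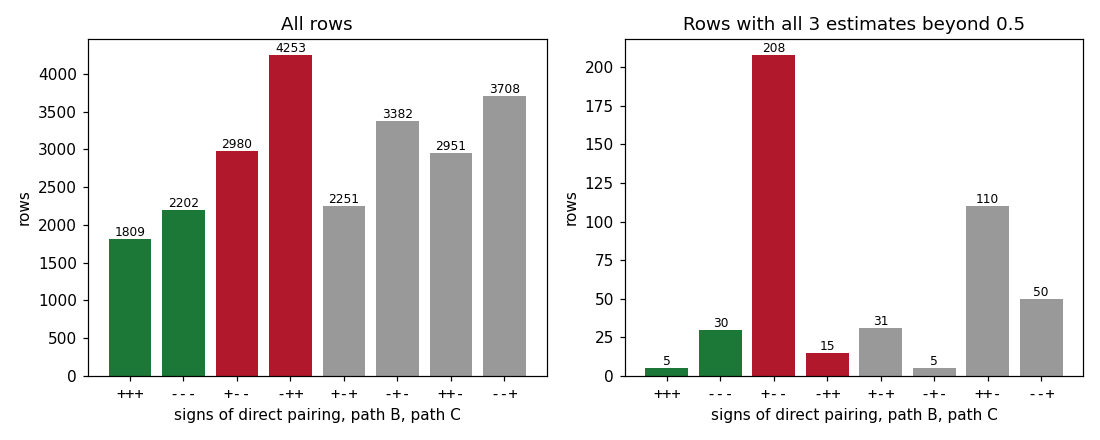
Bars count rows by the signs of the direct pairing, the path through B and the path through C, in that order, over all rows (left) and over rows with all 3 values beyond 0.5 in log-ratio units (right). Green bars are rows with one sign on all 3, red bars are rows where the direct pairing opposes both paths and grey bars are the rest. On the right the red bar of 208 rows is the tallest and the green bars hold 5 and 30 rows.

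A fit to all 6 pairings gave a combined value in which the direct pairing has a weight of 2 and each path a weight of 1, while B vs. C adds only to the residual spread. By limma's moderated test with Benjamini-Hochberg adjustment over all 23549 rows, 0 rows passed an adjusted p of 0.05 (0%), and the smallest adjusted p was 1.00. An unadjusted p under 0.05 was reached by 643 rows (2.73%), of which 200 were above 0 and 443 below, where 1177 rows would be reached by a uniform spread of p-values. With the A vs. D column turned, 0 rows passed, 1853 (7.87%) reached an unadjusted p under 0.05 and the smallest adjusted p was 0.623. Turned and fitted without A vs. B, the same test passed 83 rows, 81 of them below 0. The genes below are therefore given as measured values, and none of them passed the adjusted test in either fit to all 6 pairings.

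Among named genes with one sign on all 3 estimates, 9 above 0 and 20 below 0 had an unadjusted p under 0.01, and the 8 on each side whose smallest estimate was largest in size are described. Those above 0 had fitted values from 0.57 to 1.21. Nhlh2, a transcription factor of developing neurons, had log ratios of 1.47 on A vs. D, 1.25 on A vs. B, -0.63 on B vs. D, -0.47 on A vs. C and 1.77 on C vs. D. Its 3 estimates were 1.47 direct, 0.63 through B and 1.29 through C, and the fitted value was 1.21 ± 0.32 (standard error, 6 pairings). All 3 lay above 0, although each path contained a step below 0.

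Wnt1, a secreted ligand of the Wnt pathway that promotes bone formation, had estimates of 0.49 direct, 0.76 through B and 1.48 through C. Its fitted value was 0.80 ± 0.21, and most of the path through C came from C vs. D at 1.67. Hspb6, a small heat shock protein abundant in muscle, had estimates of 1.19, 0.30 and 1.57 in the same order, with a fitted value of 1.06 ± 0.26. Its path through C also rested on C vs. D, at 1.79, while A vs. C was -0.21. Thus for Nhlh2, Wnt1 and Hspb6 alike the pairing within alcohol-fed rats was the column farthest from 0.

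Pik3r3, a regulatory subunit of phosphoinositide 3-kinase, was the most even of this set, with estimates of 0.47, 0.75 and 0.59 and log ratios above 0 on all 5 columns. Taf7l, a germ-cell relative of a subunit of the general transcription machinery, had a fitted value of 0.96 ± 0.22 and its smallest estimate on the path through B at 0.45. Ik, a splicing factor, had 1.21 on the direct pairing against 0.35 and 0.50 on the paths. Rbp2, a cellular retinol-binding protein, had 1.01 on the direct pairing and 0.13 through B. Acyp1, an acylphosphatase, was averaged from 2 probes that disagreed, at -0.13 and 1.96 on the direct pairing, so its agreement came from the average and from neither probe.

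Below 0, the fitted values of the 8 genes ran from -1.52 to -0.66. Vdac1, the main channel of the outer mitochondrial membrane, had log ratios of -1.06 on A vs. D, -0.78 on A vs. B, -0.77 on B vs. D, -0.43 on A vs. C and -1.002 on C vs. D. Its estimates were -1.06 direct, -1.55 through B and -1.44 through C, and its fitted value was -1.28 ± 0.21 with an unadjusted limma p of 0.000622. Of all 16 genes it had the largest smallest estimate. Spin2 had estimates of -1.03, -1.46 and -0.999, and Fhl4, a LIM-domain protein, had -0.995, -1.14 and -0.976, so for Spin2 and Fhl4 no estimate lay closer to 0 than -0.976.

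The remaining genes below 0 included Morc3, a nuclear ATPase that binds chromatin, at -0.92 ± 0.23, and Pigo, an enzyme of glycosylphosphatidylinositol anchor synthesis, at -0.66 ± 0.18. Olr1493, Or4f7 and Or8b59 are olfactory receptor genes, with fitted values of -1.52 ± 0.40, -0.81 ± 0.17 and -0.88 ± 0.20. In Olr1493 the size came from the single pairing B vs. D, at -2.51. Over all 899 olfactory and vomeronasal receptor genes measured, a family chosen after its values were seen, 125 (13.9%) were below 0 on all 3 estimates, beside 9.35% of all rows, and 63 (7.01%) were above 0 on all 3, beside 7.68%.

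Most of the genes below 0 were below 0 on every pairing. Vdac1, Spin2, Fhl4, Olr1493, Pigo and Or8b59, which are 6 of the 8, had negative log ratios on all 6 columns, including B vs. C, which is no part of either path. The same held for 16 of the 30 rows below -0.5 on all 3 estimates (53.3%) and for 95 of all 23549 rows (0.403%). Group A is named first in each of its pairings and group D second in each of its own, so an offset shared by all columns of a row shifts A minus D as well. With a constant for each row in the fit, an alternative added after seeing the data, Vdac1 was at -0.42 ± 0.40, Spin2 at -0.62 ± 0.43 and Fhl4 at -0.15 ± 0.53. That fit also gives A vs. B and C vs. D negative weight in A minus D. Each of the 8 genes above 0 had at least 1 column below 0, which for Pik3r3 was B vs. C, at -0.04.

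**Figure D3:**
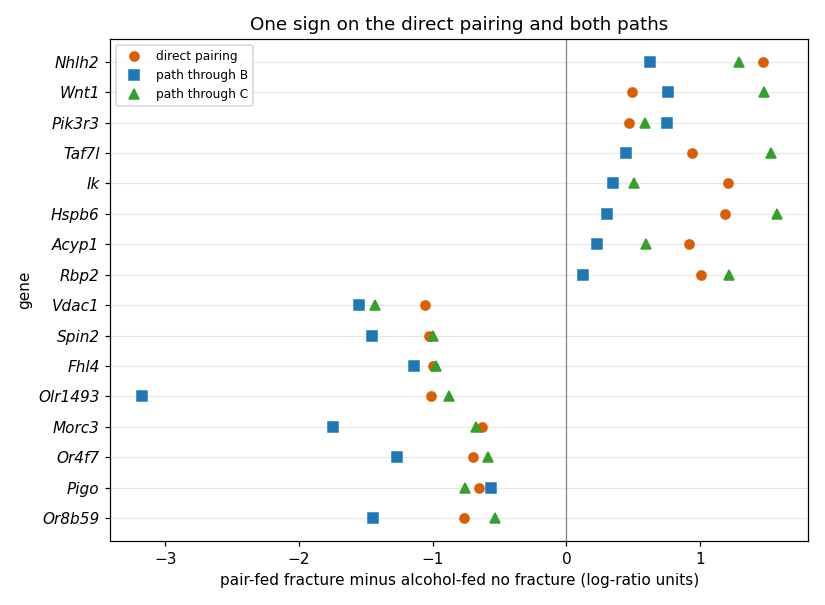
Each row is a gene with one sign on all 3 estimates of pair-fed fracture minus alcohol-fed no fracture, in log-ratio units, with the direct pairing as circles, the path through B as squares and the path through C as triangles. The 3 symbols of Fhl4 lie close together, at -0.995, -1.14 and -0.976, and the path through B of Olr1493 at -3.17 lies far from its other symbols.

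With the A vs. D column turned, the genes that agree are those in which the direct pairing opposed both paths. Of named genes with one sign in that setting, 35 of 2291 above 0 and 114 of 1559 below 0 had an unadjusted p under 0.01. With the titles' signs these were 9 of 946 and 20 of 1198. Over all 23549 rows, 334 reached that p with the column turned and 67 with the titles' signs. Of the 8 described below 0, Rhag had the smallest unadjusted p and was the only member of the erythroid list. Rhag, the Rh-associated glycoprotein of the erythrocyte membrane, had log ratios of 1.00 on A vs. D, 0.13 on A vs. B, -1.21 on B vs. D, 0.28 on A vs. C and -1.33 on C vs. D. Its estimates were thus 1.00 direct but -1.08 through B and -1.05 through C. The turned fit gave -1.04 ± 0.13 with an unadjusted limma p of 0.000127, and the fit with the titles' signs gave -0.03 ± 0.43.

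In Rhag both path steps that end in group D were below -1 and both that leave group A were slightly above 0, so the paths agreed step by step. Rhoa, a small GTPase that controls the actin cytoskeleton, had similar steps into group D, with -1.13 on B vs. D and -1.24 on C vs. D but 1.28 on A vs. D. Hist1h3b, a replication-dependent histone H3 gene whose near-identical copies a probe may not separate, had -1.19 and -1.05 on those steps and 1.27 on A vs. D. Its turned fit gave -1.24 ± 0.17. Ypel5 had -1.48, -1.42 and 1.41. In Rhoa, Hist1h3b and Ypel5 the step A vs. C lay below 0, at -0.29, -0.32 and -0.37, unlike in Rhag.

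Ldhc, the lactate dehydrogenase subunit of the testis, had the path values farthest from 0 of the 16 genes chosen this way, at -1.76 through B and -2.91 through C against 1.32 on the direct pairing. Ccdc77, Klra22, a lectin-like receptor of the natural killer cell family, and Filip1, a protein that binds filamin, had direct values from 1.71 to 2.13 and paths from -0.94 to -2.46. In these 3 genes the negative value through C came mainly from A vs. C, at -1.40 to -1.71. On this path the step out of group A was therefore the lower one, unlike in Rhag and Rhoa.

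On the opposite side, genes with a direct value below 0 and both paths above it were smaller in size. Dab1, an adaptor of the reelin receptors, had -0.71 direct, 0.76 through B and 0.97 through C, and a turned fit of 0.79 ± 0.14. Car5b, a mitochondrial carbonic anhydrase, had paths of 0.91 and 0.91 against a direct value of -0.54. Mapk8, the stress-activated kinase JNK, had 0.63 and 0.58 against -0.58, and Rc3h1, an RNA-binding protein that shortens the life of inflammatory messages, had 0.73 and 0.66 against -0.50. Copz2, Klhdc4, Svop and Or4k44 had turned fits between 0.60 and 0.77.

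**Figure D4:**
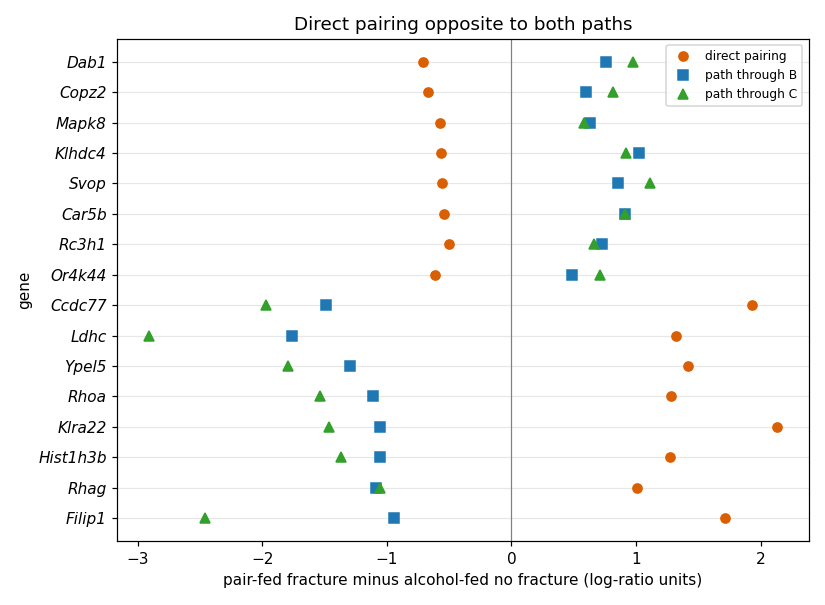
Each row is a gene in which the direct pairing (circles) opposes the path through B (squares) and the path through C (triangles), in log-ratio units of pair-fed fracture minus alcohol-fed no fracture. For Rhag the symbols stand at 1.00, -1.08 and -1.05, and for Ldhc the path through C reaches -2.91.

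The paths can be read without the direct column. Fitted without A vs. D, 0 rows passed and 780 (3.31%) reached an unadjusted p under 0.05. Rap1gap, which switches off the small GTPase Rap1, had 2.08 on A vs. B and 1.97 on C vs. D, the pairings of fracture with no fracture within a diet. Its other columns were closer to 0, with 0.09 on A vs. C, -0.12 on A vs. D, -0.28 on B vs. D and -0.71 on B vs. C. The paths gave 1.93 ± 0.45 for A minus D, and the direct pairing gave -0.12.

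The other genes chosen above 0 by the paths had this profile too. Cdk20, a cyclin-dependent kinase, had 1.56 on A vs. B and 2.51 on C vs. D, Ywhag, an adaptor that binds phosphorylated proteins, had 1.24 and 2.12, and the sulfotransferases Sult2a6 and Sult1c2a had 1.34 and 1.64, and 1.21 and 1.83. Their direct values lay between -0.17 and 0.16, and their log ratios on B vs. C between -0.89 and -0.56. Both pairings within a diet were thus well above 0 in all 5 genes, while A vs. D, which also crosses from fracture to no fracture, was near 0 whichever way it is turned. Fitted to all 6 pairings with a constant for each row, the 5 genes lay below 0. Rap1gap was at -1.69 ± 0.46, Cdk20 at -1.39 ± 0.59, Sult2a6 at -0.78 ± 0.44, Ywhag at -1.44 ± 0.58 and Sult1c2a at -1.07 ± 0.46. In that fit A vs. B and C vs. D, the columns on which these genes are high, enter A minus D with negative weight. The change of sign reflects those weights and is no independent check of the paths.

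Below 0 on both paths, Or1e21b, an olfactory receptor gene, had -1.95 through B and -2.04 through C, from -1.63 on B vs. D and -1.84 on C vs. D, with a direct value of -0.25. Slc25a51, a carrier of the inner mitochondrial membrane, had -1.12 and -1.89 with a direct value of 0.83. With a constant for each row, and so with the same negative weights, they lay above 0, at 0.52 ± 0.59 and 1.39 ± 0.93. That is no independent check either. Vdac1, Ldhc and Ypel5, described above, were also chosen here, and of these 5 genes Vdac1 and Or1e21b had a direct value of the same sign as the paths.

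The difference between the direct pairing and the mean of the paths was tested on its own. No row passed (0 of 23549), while 1712 (7.27%) reached an unadjusted p under 0.05, 1249 of them with the direct value above the paths, and the smallest adjusted p was 0.600. With the A vs. D column turned, 0 rows passed and 900 (3.82%) reached that p. The count with the titles' signs depended on single pairings: 273 rows passed without A vs. B and 99 without B vs. C, 244 and 98 of them with the direct value above the paths, and with the 50% of rows of smallest values left out, 205 of 11774 passed. Acvr1c, an activin-type receptor, had the largest difference of the named genes at 4.03 ± 0.87, from 2.67 direct against -0.55 and -2.17. Rrbp1, a ribosome-binding protein of the endoplasmic reticulum, had a direct value of 3.56, with 0.67 through B and -1.50 through C. Serinc1 and Qsox1, a secreted enzyme that forms disulfide bonds, had differences of 3.93 ± 0.86 and 3.78 ± 0.57.

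In these 4 genes A vs. D lay between 2.67 and 3.56 and A vs. C between -1.92 and -1.48, while their other 4 columns stayed within -0.75 and 0.81. The opposite case was Lamb1, a laminin chain of basement membranes, with -1.63 on A vs. D and 1.43 on A vs. C, and a difference of -2.43 ± 0.45. Drd1, a dopamine receptor, Tlcd5 and Dab1 had differences of -2.34, -1.73 and -1.57. The 2 paths were compared in the same way, without the direct column, and 0 rows passed, with 767 (3.26%) at an unadjusted p under 0.05.

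Gene lists were described by counts and medians over their measured members, which are 358 of 459 symbols in 25 lists. Members named only to identify a count were named after their values were seen. No member of any list passed in the fit with the titles' signs or in the turned fit. All rows had medians of -0.05 on the direct pairing, 0.02 through B and 0.01 through C. The 3 medians had one sign in 6 lists with the titles' signs and in 8 with the A vs. D column turned, and the 2 paths had one sign in 14. The 6 lists were heat shock and chaperones, smooth muscle and pericyte, and Wnt signalling above 0, and B lymphocyte, proliferation, and osteoblast and bone matrix below 0, where the last had a direct median of -0.00.

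**Figure D5:**
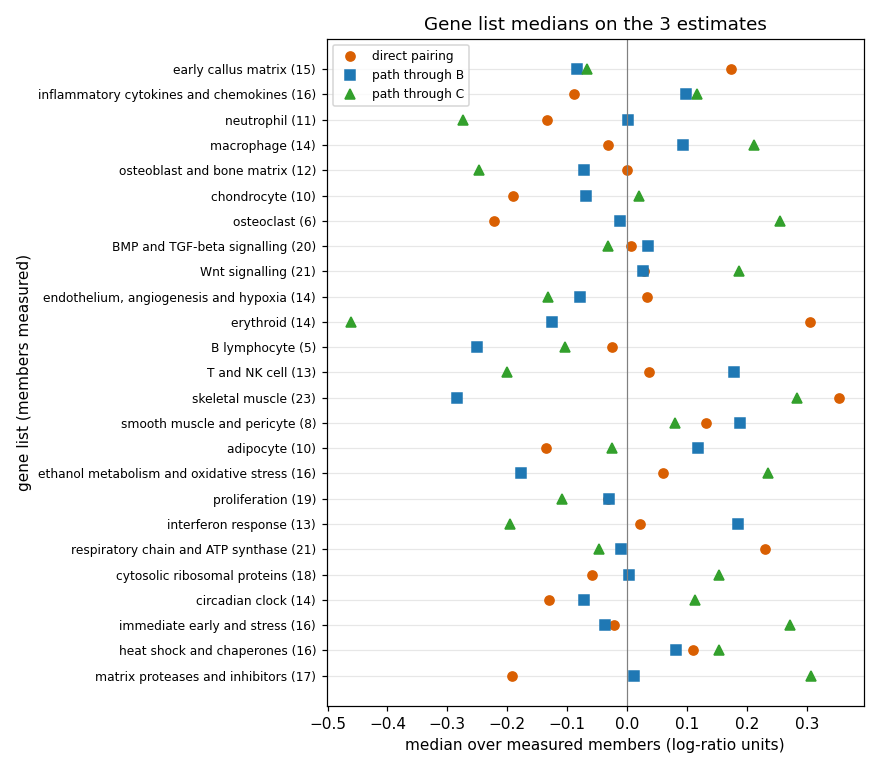
Points are medians over the measured members of each gene list, in log-ratio units of pair-fed fracture minus alcohol-fed no fracture, for the direct pairing (circles), the path through B (squares) and the path through C (triangles). The circles of skeletal muscle (0.35) and erythroid (0.30) lie farthest to the right, and their squares lie to the left of 0.

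Skeletal muscle genes, contractile proteins and enzymes of muscle fibres that can enter a sample from tissue around the bone, had paths on opposite sides of 0. On the direct pairing 20 of 23 measured members lay above 0, where 42.4% of all rows did, with a median of 0.35. Through B 5 of 23 did (52.7% of all rows), with a median of -0.28, and through C 14 of 23 (51.1%), with a median of 0.28. Only Tnnc1, a troponin subunit named after its values were seen, had one sign on all 3, at 0.23, 0.17 and 0.25, where 17% of all rows did. In 7 of 23 the direct pairing opposed both paths, beside 30.7% of all rows.

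The single columns were more orderly than the paths for this list. Medians were 0.38 on A vs. B, -0.64 on B vs. D, -0.92 on A vs. C, 0.94 on C vs. D and -0.83 on B vs. C, so alcohol-fed fracture lay above and pair-fed no fracture below each group they were paired with. Acta1, skeletal alpha actin, named after its values were seen, showed this at 1.02, -2.81, -2.14, 2.39 and -2.13 in that order, with 1.67 on A vs. D. The difference A minus D is then a difference of large steps of opposite sign, and its fitted value was 0.45 ± 0.69. Mybpc2, a myosin-binding protein of fast fibres, had 1.09 direct, -0.12 through B and 0.58 through C, and Myl11, a myosin light chain of fast fibres, had 0.73, -0.32 and 0.55.

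Erythroid genes, which mark developing red cells of the marrow and haem synthesis, had medians of 0.30 direct, -0.13 through B and -0.46 through C over 14 measured members. One sign on all 3 was found in 2 of 14, Ermap and Fech, beside 17% of all rows. In 7 of 14 the direct pairing opposed both paths, where 30.7% of all rows did. Fech, the enzyme that inserts iron into haem, had estimates of -0.07, -0.69 and -1.53, the last from -2.19 on C vs. D. Ermap, a blood group protein of the red cell membrane, had 0.42, 0.36 and 0.02.

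With the A vs. D column turned, 4 of 14 erythroid genes reached an unadjusted p under 0.05 (7.87% of all rows did), all below 0 and with adjusted p of 0.623 or above. They were Rhag, Epb42 at -1.89 ± 0.56, Slc4a1 at -0.90 ± 0.27 and Tfrc, the transferrin receptor, at -0.74 ± 0.21, and Epb42, Slc4a1 and Tfrc were named after their values were seen. Epb42 encodes a protein of the red cell membrane skeleton and Slc4a1 the anion exchanger to which it binds. Their direct values were 2.20 and 1.501, and their paths -0.95 and -2.22 for Epb42 and -0.32 and -0.28 for Slc4a1. In that fit 5 of the 14 members lay above 0, among them Alas2, Epor and Urod at 0.46, 0.43 and 0.42. With the titles' signs 0 of 14 reached that p. Alas2, the first enzyme of erythroid haem synthesis, had -0.19 direct, -0.10 through B and 1.58 through C, where 3.33 on A vs. C met -1.75 on C vs. D.

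Early callus matrix genes had no member with one sign on all 3 among 15 measured, where 17% of all rows did. In 6 of 15 the direct pairing opposed both paths, beside 30.7% of all rows. Medians were 0.17, -0.08 and -0.07. Col6a3, a chain of collagen VI, had 1.58 direct, -0.08 through B and 1.25 through C, with a fitted value of 1.08 ± 0.35, and Aspn, a small leucine-rich proteoglycan, had 1.70, 0.71 and -0.29. In each of them 1 path lay across 0 from the direct pairing. Fn1, fibronectin of the provisional matrix, named after its values were seen, had 0.48, -0.18 and -0.86.

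Inflammatory cytokines and chemokines, the signals of the injury phase, had one sign on all 3 in 5 of 16 members, where 17% of all rows did. Those below 0 were the cytokines Lif, Il11 and Il6, and those above 0 were the chemokines Ccl7 and Cxcl2. Lif had -0.56 direct, -0.21 through B and -0.51 through C, with a fitted value of -0.46 ± 0.16. Il11 had -0.45, -0.21 and -0.14, and Il6 had -0.42, -0.11 and -0.08. Their unadjusted limma p-values were 0.026, 0.072 and 0.136, and with the A vs. D column turned the fitted values of all 3 lay above 0. Ccl7, which attracts monocytes, had 0.38, 0.31 and 0.72, and the last was the sum of -2.18 on A vs. C and 2.90 on C vs. D. In Tnf, Il1b, Il1a, Ccl3, Ccl4 and Ptgs2 the direct pairing opposed both paths.

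Neutrophil genes had medians of -0.13, 0.00 and -0.27 over 11 members. One sign was found in 2 of 11, beside 17% of all rows, with S100a9 below 0 and Cxcr2 above it. S100a9, which binds calcium and fills the neutrophil cytoplasm, had -1.004 direct, -0.19 through B and -0.44 through C, with a fitted value of -0.66 ± 0.22. Csf3r, the receptor for granulocyte colony-stimulating factor, had -0.52, 0.11 and -0.35. The wide steps of S100a9 were 1.28 on A vs. C and -1.72 on C vs. D, which nearly cancelled in the path through C.

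Heat shock and chaperone genes had medians above 0 on all 3 estimates, at 0.11, 0.08 and 0.15 over 16 members. One sign was found in 4 of 16, all above 0: Hspb6, Hspb1, Hspb8 and Hspa4. Hspa4, a cytosolic chaperone, had 0.18, 0.23 and 1.02. In 6 of 16 the direct pairing opposed both paths, among them Hspd1, the mitochondrial chaperonin, at 1.38 direct against -0.53 and -1.30, which was named after its values were seen. The medians of this list therefore agreed while more of its members were opposed than agreed. Over all rows, too, more were opposed than agreed, at 30.7% against 17%.

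Genes of ethanol metabolism and oxidative stress had one sign in 3 of 16 members, beside 17% of all rows. Hmox1 lay below 0 and Sod2 and Txn1 above it. Hmox1, which breaks down haem, had -0.19 direct, -0.61 through B and -0.54 through C, with a fitted value of -0.38 ± 0.16. Prdx1, a peroxidase that removes hydrogen peroxide, had close paths of 1.02 and 1.15 against -0.25 on the direct pairing. Aldh2, which oxidises acetaldehyde made from ethanol, had 0.18, -0.47 and -0.01, with a fitted value of -0.03 ± 0.23.

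Wnt signalling genes had one sign in 3 of 21 members, beside 17% of all rows. They were the ligands Wnt1 and Wnt5a and the secreted Wnt inhibitor Sfrp4, all above 0. Sfrp4 was at 0.23, 0.16 and 0.19, and Wnt5a at 0.03, 0.22 and 0.25. Dkk1, a secreted inhibitor of Wnt receptors, had 0.63 direct, -0.39 through B and 0.94 through C. In 6 of 21 the direct pairing opposed both paths, beside 30.7% of all rows. Among them was Axin2, a feedback target of the pathway named after its values were seen, at 0.86 against -0.28 and -0.72.

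The growth factors and osteoblast genes of bone repair that were set by rule did not agree in sign. Bmp2, the growth factor needed to start fracture healing, had 0.62 direct, -0.11 through B and -0.18 through C. Vegfa, the main growth factor for blood vessels, had -0.09, 0.05 and -0.19, from 2 probes whose direct values were -0.49 and 0.32. The osteoblast transcription factors Runx2 and Sp7 had fitted values of 0.01 ± 0.16 and 0.02 ± 0.20, and osteocalcin (Bglap) had 0.01 ± 0.25. For none of Bmp2, Vegfa, Runx2, Sp7 and Bglap did all 3 estimates share a sign. In the list of BMP and TGF-beta signalling, 3 of 20 measured members had one sign, beside 17% of all rows. Among them was Smad4, named after its values were seen, at 1.53 direct, 0.19 through B and 2.52 through C.

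The 2 other genes set by rule for their wide columns largely cancelled on the path through C. Mustn1, a nuclear protein found in muscle and regenerating bone, had -3.36 on A vs. C and 3.00 on C vs. D, which summed to -0.37 through C, beside 0.91 on the direct pairing and -0.17 through B. Dbp, a clock-controlled transcription factor, had 2.27 and -1.70, which summed to 0.57, beside 0.21 and -0.58. Their fitted values were 0.32 ± 0.42 and 0.10 ± 0.23, so neither differed from 0 beyond its error, although their log ratios between alcohol-fed fracture and groups A and D were among the widest given here. Other wide columns did not cancel. Col10a1, Ctsk and Mmp9, named after their values were seen, had 4.86, 3.18 and 3.06 on A vs. C but 0.19, 0.05 and 0.006 on C vs. D. Their paths through C were 5.05, 3.24 and 3.06, and their paths through B were -2.88, -0.37 and -0.99.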

How the data were processed

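RNA of 4 rat groups was compared on 2-colour oligonucleotide arrays, and the authors deposited a log ratio for each probe and pairing. Per the labels, RNA was isolated with Trizol, amplified and coupled to Cy3 or Cy5, and each pairing has a dye-swap array, so a deposited column appears to combine 2 of the 12 arrays. Not stated in the labels or the deposited table are the log base, the numerator, the scanner, background correction and normalization. Deposited columns have a mean of 0, so a shift shared by all genes cannot be seen, and signal over background was not used here.

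From 26503 probes, 22 control spots were left out. Platform annotation gave 1 symbol to 15521 of 26481 probes (11824 current, 3638 updated through a synonym, 59 kept), and probes of 2219 genes were averaged. Rows with no symbol were tested but are not named. Estimates were the A vs. D column and the sums A vs. B plus B vs. D and A vs. C plus C vs. D. Fits used limma 3.58.1 in R 4.3.3, with +1 for the first-named and -1 for the second-named group, on all 6 pairings, with 3 residual and 3.66 prior degrees of freedom. Contrasts were A minus D, the direct pairing against the paths and path against path. P-values were two-sided and adjusted by Benjamini-Hochberg over 23549 rows. The scripts were tested on simulated data.

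Named genes, by rule: with 1 symbol and unadjusted p under 0.01, the 8 on each side with one sign on all 3 estimates and the largest smallest estimate, with the titles' signs and with A vs. D turned, 5 on each side from the paths alone, and 4 on each side for direct against paths. Added to these were the members of smallest p in each list described, and a set of 13 genes of bone repair, alcohol and wide columns. Gene lists, members and rules were chosen with earlier results of these data known. Alternatives were the sign of a column, averaging, a filter on small values, scaling, centring, variance moderation and leaving out each pairing. One gene of ethanol metabolism is not reported here.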

Additional observations from a re-analysis of the deposited data

How the results depend on the processing

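For A minus D, 0 rows passed with the titles' signs, with A vs. D or A vs. C turned, without probe averaging, with the 50% of rows of smallest values left out, with columns scaled or centred on medians, without or with robust variance moderation, with only the spread of the 3 estimates, with a constant per row, and without each pairing in turn (0 to 0). The smallest adjusted p among these was 0.0878, with A vs. C turned. Added after seeing the data, A vs. D turned and left without A vs. B passed 83 rows, and without B vs. C 1 row, with 0 for the other 3 pairings and after scaling. For direct against paths, 205 rows passed with the smaller 50% left out, by a filter that uses the A vs. D column itself. The count was 217 with a constant per row and 0 to 273 without 1 pairing, the highest without A vs. B. Path against path passed 2 rows with A vs. C turned. The count of rows with one sign was 7233 with A vs. D turned, 6346 with A vs. C turned and 2063 with the smaller 50% left out, and was not defined for pairings left out or variance settings. Direct against paths could not be fitted without A vs. D, nor path against path without a step of a path, and genes and lists were not repeated without averaging.

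Over genes and settings, the fitted value kept its sign and its side of the threshold in 641 cases and reversed in 59, and list medians moved by more than their spread in 43 cases and by less in 332. Turning A vs. D reversed Nhlh2 (-0.26), Ik (-0.39), Hspb6 (-0.12), Acyp1 (-0.25), Rbp2 (-0.17), Mybpc2 (-0.43), Myl11 (-0.31), Ermap (-0.12), Col6a3 (-0.50), Aspn (-0.74), Lif (0.10), Il11 (0.14), S100a9 (0.35), Csf3r (0.20), Dkk1 (-0.18), Bmp2 (-0.38), Vegfa (0.0088), Il6 (0.16), Tnf (0.28), Runx2 (-0.16), Sp7 (-0.26), Mustn1 (-0.59), Dbp (-0.11), Acta1 (-1.22), Epb42 (-1.89), Slc4a1 (-0.90) and Hspd1 (-1.15). The genes chosen with A vs. D turned that reversed under the titles' signs were Or4k44 (-0.0099), Ccdc77 (0.10), Klra22 (0.44), Hist1h3b (0.031) and Filip1 (0.0046). A constant per row reversed Fech (0.34), Hspa4 (-0.11), Prdx1 (-0.71), Il1b (-0.57), Ccl7 (-0.52) and Mustn1 (-0.051), and among genes chosen by the paths Rap1gap (-1.69), Cdk20 (-1.39), Sult2a6 (-0.78), Ywhag (-1.44), Sult1c2a (-1.07), Or1e21b (0.52) and Slc25a51 (1.39), scaling reversed Runx2 (-0.033) and Bglap (-0.040), and turning A vs. C reversed Runx2 (-0.091), Bglap (-0.0082), Alas2 (-1.39) and Dbp (-1.03). Leaving out pairings moved Bmp2 from -0.15 to 0.37, Tnf from -0.15 to 0.23, Il1b from -0.027 to 0.39, Runx2 from -0.15 to 0.12, Sp7 from -0.24 to 0.18, Bglap from -0.18 to 0.17, Aldh2 from -0.24 to 0.18, Mustn1 from -0.27 to 0.71, Alas2 from -0.17 to 0.74, Dbp from -0.076 to 0.33, Acta1 from -0.77 to 1.27, Epb42 from -1.58 to 1.27, Slc4a1 from -0.30 to 0.87 and Hspd1 from -0.92 to 0.72, each reversing at least once. The cause was not tested.

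No paired analysis was possible because each pairing was deposited once and its sample numbers do not mark a shared batch. Signal over background was not used here, so which rows are dim is unknown.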

Other observations

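Lists not described above also had direct medians away from their paths. Of 21 measured genes of the respiratory chain and ATP synthase, which make ATP in mitochondria, 17 lay above 0 on the direct pairing (42.4% of all rows did), with a median of 0.23, but 10 through B and 10 through C, with medians of -0.01 and -0.05. Of 18 cytosolic ribosomal protein genes, 3 lay above 0 on the direct pairing, with a median of -0.06, and 9 and 10 did on the paths through B and C. Matrix proteases and their inhibitors, which remodel the callus, had medians of -0.19 direct, 0.01 through B and 0.31 through C over 17 members.

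Macrophage genes had one sign on all 3 estimates in 6 of 14 members (17% of all rows did), with medians of -0.03, 0.09 and 0.21, so the direct median still lay across 0 from the paths. Chondrocyte genes had medians of -0.19, -0.07 and 0.02 over 10 members. Smooth muscle and pericyte genes had medians of 0.13, 0.19 and 0.08 over 8 members. No member of these lists passed the adjusted test in the fits to all 6 pairings.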
